A study of Mus musculus with 30 samples.

Results

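Luminal epithelial cells of parous mice were compared between K8iΔRank and K8imTmG females in 9 libraries of a series of 30, each made from the GFP+ luminal cells of 1 numbered mouse. K8iΔRank libraries came from mice 787, 794, 798 and 830 (n = 4), and K8imTmG libraries from mice 494, 532, 534, 557 and 558 (n = 5). The comparison took every luminal library labelled parous in each genotype, and all 11137 genes of the deposited table of normalized read counts were examined. Both genotypes carry K8rtTA, TetO-Cre and the mTmG reporter and received doxycycline (1 mg/ml) in the drinking water between weeks 3 and 8 of age, according to the labels, and K8iΔRank mice carry Rank fl/fl in addition. Cre is therefore expressed in cells with an active Krt8 promoter, so that luminal cells and their progeny become GFP+, and basal cells of the same glands are not the direct target.

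According to the study's methods, the females were kept in a mixed background, GFP+ luminal cells were sorted by high CD24 and low CD49f after CD45+ lymphocytes and CD31+ endothelial cells had been gated out, and the glands were collected after involution. K8iΔRank mothers failed to lactate and lost their pups at the start of lactation, whereas pups of K8imTmG mothers were removed later, so that Rank deletion and the length of nursing cannot be told apart in this comparison. All p-values measure the spread between mice.

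Rank, encoded by Tnfrsf11a, is the receptor of Rankl, a cytokine that progesterone induces in hormone-sensing luminal cells of the mammary gland (MG). Rankl acts on neighbouring luminal progenitors and basal cells, where Rank signals through NF-κB and promotes proliferation and the formation of milk-secreting alveoli in pregnancy. After weaning most alveoli are removed by involution, and the parous gland returns to a state that resembles that of a virgin, with epithelial populations known as hormone-sensing luminal, alveolar or progenitor luminal, and basal.

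The sorted cells carried the defining markers of luminal cells in every library. The normalized read count of Krt8 ranged between 994 and 1902, that of Krt18 between 857 and 2098 and that of Epcam between 835 and 1362, while the basal keratin Krt5 did not exceed 13.4 and the myoepithelial actin Acta2 did not exceed 33.3. K8iΔRank libraries held 2214318 to 3130419 reads and K8imTmG libraries 532, 534 and 558 held 2781750 to 2988541. K8imTmG libraries 494 and 557 held only 943438 and 534445 reads, so that 1 read was worth 1.68 and 3.20 normalized counts there, against 0.381 to 0.557 in the other 7.

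Libraries 494 and 557 stood apart from the other 7 in more than depth, and log2 fold changes are therefore given with all 9 libraries and without these 2. Clec2d, which encodes a C-type lectin, was at 90.7 in library 494 and 125 in library 557, against 1.76 to 4.80 in the other K8imTmG libraries and 1.97 to 2.28 in K8iΔRank libraries. Genes of cytosolic ribosomal proteins took 19.1% and 25.2% of the normalized counts in libraries 494 and 557, against 9.53% to 12.1% in the other 7, and mitochondrial genes took 4.23% and 3.99%, against 1.66% to 2.45%. The first principal component (40.9% of the variance) separated libraries 494 and 557 from the rest, and on the second (29.1%) all 4 K8iΔRank libraries were below all 5 K8imTmG libraries.

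**Figure D1:**
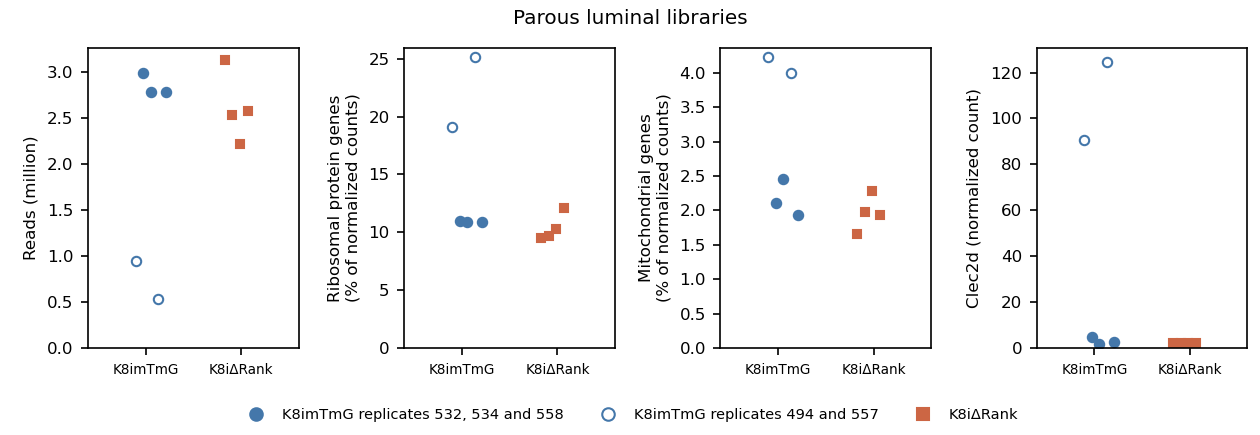
Number of reads, share of ribosomal protein genes and of mitochondrial genes in % of normalized counts, and the normalized count of Clec2d in each parous luminal library. Each point is 1 library. The open circles, K8imTmG replicates 494 and 557, are the lowest in reads and the highest in the other 3 panels.

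The count of Tnfrsf11a, the targeted gene, does not by itself check the deletion, since the QuantSeq assay reads the 3′ end of a transcript. A pair of PCR primers for Rank in exons 2 and 3 is shown because it lies at the other end of the transcript:
Rank forward: agaggcattatgagcatct
Rank reverse: cagactttatgcagcaagca
In GRCm39, the build of the deposited counts, the forward primer matches the plus strand of chromosome 1 at 105735902 to 105735920, in exon 2 of 10 of the transcript with 6490 bases. The reverse complement of the reverse primer matches chr1:105737153-105737172 in exon 3, and both lie in Tnfrsf11a (chr1:105708358-105777170). They end 6325 and 6178 bases before the 3′ end of that transcript. Tnfrsf11a read 50.4, 64.9 and 49.3 in K8imTmG libraries 532, 534 and 558, 20.2 and 12.8 in libraries 494 and 557, and 41.1, 27.0, 32.3 and 34.3 in K8iΔRank libraries 787, 794, 798 and 830. K8iΔRank values lay between the 2 sets of K8imTmG values. The log2 fold change was -0.01 (SE 0.43, limma adjusted p = 0.992) with all 9 libraries and -0.69 (SE 0.20, adjusted p = 0.0851) without libraries 494 and 557.

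K8iΔRank parous luminal cells held more transcript of 10 genes in limma, and no gene was called lower there when all 9 libraries were used. DESeq2 on reads recovered from the same libraries called 270 genes higher and 341 lower. The 10 include the secreted proteins Masp1, Serpine2 and Ntn4, the transmembrane collagen Col23a1 and the proteoglycan Snorc. The others are the caveolar protein Cavin2, the lipid enzymes Lpcat3 and Sgms1, the epithelial 14-3-3 protein Sfn and the RNA-binding protein Rbm24. A gene was called at a Benjamini-Hochberg adjusted p under 0.05 in limma on log2(normalized count + 1), and all fold changes are on that scale, which understates the change of low genes. Of 10090 genes tested 0.0991% were called, and 2009 genes had an unadjusted p under 0.05, of which 1043 were higher and 966 lower. In K8iΔRank libraries 5.49% of genes lay above every K8imTmG library and 4.24% lay below every one.

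Masp1 (chr16:23268167-23339779), which encodes a protease of the lectin pathway of complement, read 148, 245, 192 and 265 in K8iΔRank libraries 787, 794, 798 and 830. In K8imTmG libraries it read 5.20, 4.85 and 31.2 in 532, 534 and 558, and 5.04 and 12.8 in 494 and 557. Masp1 rose by 4.39 on the log2 scale (SE 0.48, adjusted p = 0.0221), and by 4.30 without libraries 494 and 557 (SE 0.54, adjusted p = 0.0187). Every K8iΔRank value was above every K8imTmG value, and library 558 was the highest of the controls.

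Serpine2 (chr1:79763323-79839144), a secreted inhibitor of thrombin and other serine proteases, read 264, 122, 180.0 and 304 in K8iΔRank libraries. Its values were 37.2, 7.94 and 13.8 in K8imTmG libraries 532, 534 and 558, and 15.1 and 3.20 in 494 and 557. It rose by 4.01 on the log2 scale (SE 0.54, adjusted p = 0.0352), and by 3.58 without libraries 494 and 557 (SE 0.47, adjusted p = 0.0236). The groups did not overlap. Masp1 and Serpine2 were the only called members among 21 tested genes of complement, coagulation and serine protease inhibitors, whose median was 0.03 beside 0.04 for all genes tested.

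Ntn4 (chr10:93476543-93583069), a netrin of basement membranes, read 54.8, 66.8, 66.3 and 67.0 in K8iΔRank libraries and 9.20, 3.09 and 12.98 in K8imTmG libraries 532, 534 and 558, with 6.72 and 12.8 in 494 and 557. Ntn4 rose by 2.83 on the log2 scale (SE 0.35, adjusted p = 0.0243), and by 2.95 without those libraries (SE 0.37, adjusted p = 0.0187). No other of 31 tested netrins and guidance cues was called, and their median was 0.19. Snorc (chr1:87397772-87403204), a proteoglycan first known from cartilage, read 183, 229.9, 193 and 329.8 in K8iΔRank libraries, and 21.6, 15.9 and 25.1 in K8imTmG libraries 532, 534 and 558. Libraries 494 and 557 were higher for Snorc, at 60.5 and 41.5. Snorc rose by 2.91 on the log2 scale (SE 0.36, adjusted p = 0.0243) and by 3.41 without them (SE 0.24, adjusted p = 0.00104).

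Col23a1 (chr11:51180566-51474745), which encodes a transmembrane collagen, was all but absent from control libraries. It had 1 read over the 5 K8imTmG libraries and 184 reads over the 4 K8iΔRank libraries, a ratio of normalized rates of 173.5 (exact 95% interval of 30.75 to 6889, for counting error only). Its normalized counts were 25.9, 10.3, 7.25 and 40.7 in K8iΔRank libraries and at most 0.400 in K8imTmG libraries, with an adjusted p in limma of 0.0372 and of 0.0408 without libraries 494 and 557. All 4 K8iΔRank libraries were above all 5 K8imTmG libraries. Col23a1 passed the filter of 10 normalized counts only through K8iΔRank libraries. A higher value was therefore built into its selection, and its p-values, ratio and lack of overlap are no independent support.

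Cavin2 (chr1:51328266-51345710), a coat protein of caveolae, read 265, 224, 259 and 276 in K8iΔRank libraries and 130.4, 79.9, 123, 102 and 105 in K8imTmG libraries 532, 534, 558, 494 and 557. Lpcat3 (chr6:124639765-124684440), which makes phospholipids with polyunsaturated chains, read 135, 203, 152 and 164 against 76.0, 68.8, 83.5, 79.0 and 70.3. Sgms1 (chr19:32097497-32367505), a sphingomyelin synthase, read 145, 212, 174 and 189 against 91.98, 78.1, 91.3, 72.2 and 60.7. These 3 genes rose by a smaller amount than Masp1, Serpine2, Ntn4, Snorc and Col23a1. Their log2 fold changes were 1.25 (SE 0.17), 1.09 (SE 0.16) and 1.18 (SE 0.18), or 1.22, 1.08 and 1.03 without libraries 494 and 557. Libraries 494 and 557 lay among the other controls for Cavin2 and Lpcat3 and below them for Sgms1.

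Sfn (chr4:133327867-133329479), known as stratifin, read 827, 764, 816 and 1030.5 in K8iΔRank libraries and 326, 348, 472, 324 and 252 in K8imTmG libraries 532, 534, 558, 494 and 557. Sfn rose by 1.34 on the log2 scale (SE 0.20, adjusted p = 0.0372), and by 1.18 without libraries 494 and 557. Rbm24 (chr13:46571589-46584575), a splicing regulator best known from muscle, read 71.9, 31.9, 56.3 and 33.3 against 6.40, 1.76, 4.33, 11.8 and 3.20 in the same order. Rbm24 rose by 3.04 on the log2 scale (SE 0.45, adjusted p = 0.0372), and by 3.29 without those libraries. No K8iΔRank value overlapped with a K8imTmG value for any of these 10 genes. For Masp1, Ntn4 and Rbm24, as for Col23a1, too few K8imTmG libraries exceeded 10 normalized counts to pass the filter without K8iΔRank libraries. Lack of overlap in these genes is thus no independent support.

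**Figure D2:**
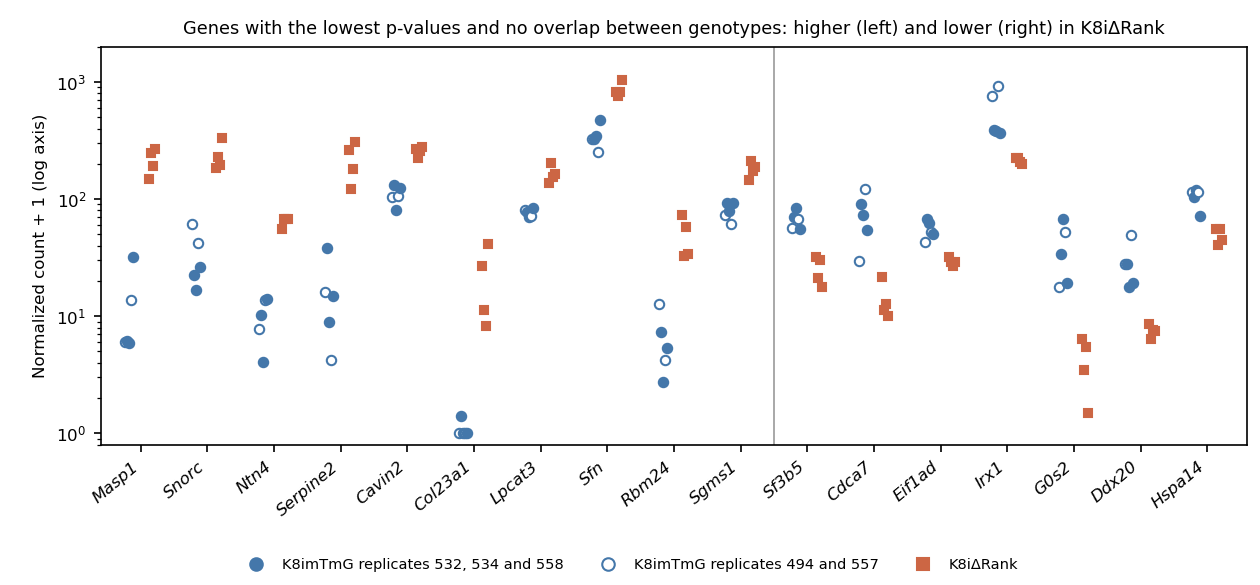
Normalized count + 1 on a log axis for the 10 genes called higher (left of the line) and for genes of the lowest p-values that were lower with no overlap (right), in each of the 9 parous luminal libraries. Circles are K8imTmG (open: replicates 494 and 557), squares are K8iΔRank, and for each gene all squares lie on one side of all circles.

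The 10 calls depended on which mice were included. Leaving out any 1 of the 4 K8iΔRank libraries left 0 genes called in limma, with 1270 to 1944 genes at an unadjusted p under 0.05. The log2 fold change of each of the 10 genes stayed at 0.99 or above in each of the 16 to 18 alternative settings in which it was tested. These genes were called in the same libraries and without overlap, so that a kept sign is no independent result. Leaving out a control gave 2 calls without K8imTmG 532, 3 without 534 or 558, 6 without 557 and 21 without 494. DESeq2 on the reads recovered from the table called 611 genes (270 higher, 341 lower) and edgeR 20 (18 higher, 2 lower), the 10 among them in both.

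Without libraries 494 and 557, 42 genes were called (0.416% of 10101 tested), 35 higher and 7 lower in K8iΔRank luminal cells. The 10 genes above were among the 42, and of the other 32, the 30 that were tested with 9 libraries had the same sign there, with adjusted p between 0.0564 and 0.659. The comparison with 9 libraries contains the libraries in which these genes were called, so that their shared sign is no independent result. Over all 10021 genes tested in both comparisons, 80.0% had the same sign. For 15 of the 42 the adjusted p lay between 0.049 and 0.05, and the count changed with 1 library, from 1 without K8iΔRank 794, 798 or 830, 4 without K8imTmG 534 and 6 without 532 to 397 without 787 and 909 without K8imTmG 558. DESeq2 called 939 genes without the 2 libraries, 534 higher and 405 lower.

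Among the genes called higher in that comparison, several encode channels, secreted peptides and growth factors. Aqp1 (chr6:55313068-55325540), a water channel of endothelium and some epithelia, read 134, 186, 212 and 164 in K8iΔRank libraries and 4.80, 3.09 and 16.4 in K8imTmG libraries 532, 534 and 558. Libraries 494 and 557 were higher, at 67.2 and 38.3, but still below every K8iΔRank library. The log2 fold change of Aqp1 was 4.53 without them (SE 0.43, adjusted p = 0.00779) and 3.41 with them (SE 0.73, adjusted p = 0.0922).

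Tac1, the precursor of substance P, read 37.3, 31.9, 39.6 and 32.8 in K8iΔRank libraries and 3.60, 7.50 and 6.92 in libraries 532, 534 and 558, with 10.1 and 15.98 in 494 and 557. Its log2 fold change was 2.42 (SE 0.27, adjusted p = 0.0187) without libraries 494 and 557 and 2.01 with them. Pgf, a ligand of the Vegf receptor Flt1, read 21.7, 21.1, 27.9 and 28.3 against 3.999, 3.97 and 6.06, with 6.72 and 0 in libraries 494 and 557, and rose by 2.19 on the log2 scale (SE 0.26, adjusted p = 0.0187). Fgf2, a basic fibroblast growth factor, had 91 reads over the 4 K8iΔRank libraries and 3 over all 5 K8imTmG libraries. The ratio of normalized rates was 28.6 (exact 95% interval of 9.48 to 141, for counting error only). Fgf2 was too low to be tested with all 9 libraries. In all of Aqp1, Tac1, Pgf and Fgf2, each K8iΔRank library lay above each K8imTmG library. In libraries 532, 534 and 558, Tac1, Pgf and Fgf2 did not exceed 10 normalized counts, and Aqp1 did so only in 558. These genes, and Kcne3 and S100g below, therefore passed the filter of that comparison through K8iΔRank libraries. A higher value was favoured by their selection, and their lack of overlap is no independent support.

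Kcne3, a potassium channel subunit, read 31.6, 32.4, 50.7 and 88.9 in K8iΔRank libraries and 5.60, 3.53 and 6.49 in libraries 532, 534 and 558, but 42.001 in library 494. With all 9 libraries the groups therefore overlapped, and its adjusted p went from 0.0187 to 0.109. Library 494 overlapped with K8iΔRank libraries in the same way for Apod, a secreted lipocalin, at 128 beside 112 to 392, and for Smim3, at 647 beside 226 to 389. H2-DMb1, a chaperone of MHC class II peptide loading, read 38.4, 43.7, 37.3 and 44.7 in K8iΔRank libraries, 12.4, 14.1 and 9.95 in libraries 532, 534 and 558, and 38.6 and 12.8 in 494 and 557. S100g, a calcium-binding protein that is induced by steroid hormones in several tissues, is the clearest case, at 42.2, 22.6, 42.4 and 19.9 in K8iΔRank libraries, 7.198, 7.06 and 5.62 in libraries 532, 534 and 558, and 50.4 and 67.1 in 494 and 557.

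Genes of adhesion and of the cytoskeleton were also among those called higher without libraries 494 and 557. Desmoplakin, encoded by Dsp and the anchor of keratin filaments at desmosomes, read 332, 541, 417 and 482 in K8iΔRank libraries and 145, 55.6 and 160.1 in libraries 532, 534 and 558, with 270.5 and 195 in 494 and 557, and rose by 1.99 on the log2 scale (SE 0.34, adjusted p just under 0.05). Dst, a cytoskeletal linker of hemidesmosomes, read 261 to 394 in K8iΔRank libraries and 118 to 153 in the 3 controls, but 309 and 272 in libraries 494 and 557, where it was inside the K8iΔRank range. Epb41l3, a membrane skeleton protein, read 28.8 to 51.1 against 9.27 to 12.1, with 18.5 and 9.59 in libraries 494 and 557. The ETS factor Etv1 read 31.9 to 62.1 against 6.62 to 17.7, and the p53 target Trp53inp1 read 117 to 224 against 39.99 to 72.7. Libraries 494 and 557 were below every K8iΔRank library for Epb41l3, Etv1 and Trp53inp1.

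Of the 7 genes called lower without libraries 494 and 557, Cdca7 (chr2:72306341-72317240), a Myc and E2F target that takes part in chromatin remodelling, fell the most. It read 20.5, 10.3, 11.7 and 8.94 in K8iΔRank libraries and 90.4, 71.5 and 53.2 in libraries 532, 534 and 558, with 28.6 and 121 in 494 and 557. Its log2 fold change was -2.42 (SE 0.30, adjusted p = 0.0187) without these libraries and -2.33 (SE 0.40, adjusted p = 0.0703) with them. The groups did not overlap with all 9 libraries either.

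Irx1 (chr13:72106040-72111848), a homeobox factor, read 222, 224, 206 and 200.2 in K8iΔRank libraries and 386, 382 and 366 in libraries 532, 534 and 558, and libraries 494 and 557 were higher still, at 761 and 927. It fell by 0.83 on the log2 scale without those libraries (SE 0.12, adjusted p = 0.0406), and with them the log2 fold change was -1.29 (SE 0.29, adjusted p = 0.0938). Sf3b5 (chr10:12881087-12884927), a subunit of the U2 snRNP of the spliceosome, read 30.8, 20.1, 29.0 and 16.9 against 69.6, 82.5 and 54.5, with 55.4 and 67.1 in libraries 494 and 557. The purine synthesis enzyme Atic read 60.2 to 81.8 against 117 to 145, and Lbh, a transcriptional regulator known from basal mammary cells, read 25.5 to 42.2 against 66.2 to 117. Atic and Lbh overlapped between genotypes once libraries 494 and 557 were included, since Lbh read 15.1 and 19.2 there and Atic 70.6 and 115.

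G0s2, an inhibitor of fat breakdown, was among the lower genes with no overlap that were not called, at 5.33, 2.46, 4.46 and 0.497 in K8iΔRank libraries against 33.2, 66.6 and 18.2 in libraries 532, 534 and 558 and 16.8 and 51.1 in 494 and 557. Its log2 fold change was -3.19 (SE 0.53, adjusted p = 0.0703) with all 9 libraries and -3.27 (adjusted p = 0.0522) without the 2. Ddx20, a helicase of the SMN complex, read 5.40 to 7.61 against 16.8 to 26.8, and Hspa14, a ribosome-associated chaperone, read 39.8 to 54.4 against 71.0 to 118. Neither gene reached an adjusted p under 0.05 in either comparison.

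**Figure D3:**
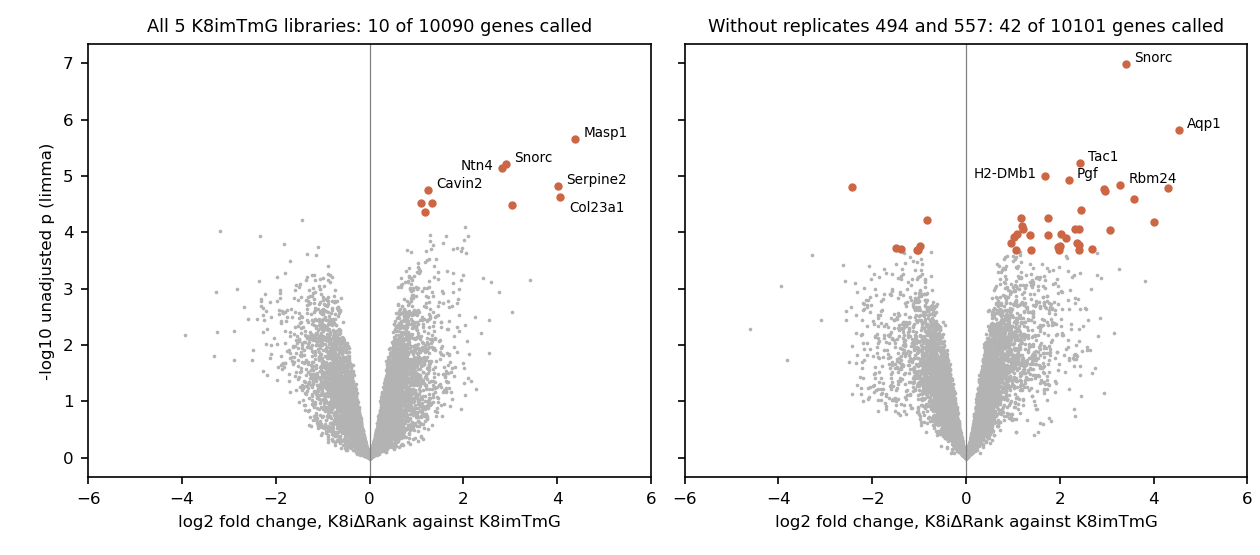
Log2 fold change (K8iΔRank against K8imTmG) and -log10 of the unadjusted limma p for every gene tested, with all 9 parous luminal libraries (left) and without K8imTmG replicates 494 and 557 (right). Each point is 1 gene and coloured points passed the adjusted threshold, 10 of 10090 on the left and 42 of 10101 on the right.

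Alveolar genes of gestation mostly read lower in K8iΔRank luminal cells, while a broader alveolar set and the milk proteins as a list did not, and none of the milk genes was called. The list of 45 genes that defines the alveolar cells of gestation (AVD) in the study had 43 members with a negative log2 fold change, with a median of -0.60 with all 9 libraries and -0.90 without libraries 494 and 557, beside medians of 0.04 and 0.00 over all genes tested. K8iΔRank libraries lay below every K8imTmG library in 7 of the 45, where 4.24% of all genes tested did so. Without the 2 libraries they did in 15, where 10.3% of all genes tested did so. Of the study's larger luminal alveolar set (C4-L-Alv), 95 members were positive and 101 negative with all 9 libraries, and 83 and 114 without the 2, with medians of -0.01 and -0.09. The AVD list was chosen by the study, and it holds genes of dividing cells (Mki67, Birc5, Ube2c) beside milk genes. The mean level of the AVD list, on the log2 scale, was 6.53 to 7.72 in K8iΔRank libraries and 7.79 to 8.61 in libraries 532, 534 and 558, with 7.23 and 8.02 in 494 and 557.

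Csn1s1, which encodes α-casein, read 1146, 566, 249 and 1326 in K8iΔRank libraries and 2664, 3662 and 2265 in libraries 532, 534 and 558, with 1964 and 2515 in 494 and 557. The groups did not overlap, and its log2 fold change was -1.91 (SE 0.44, adjusted p = 0.0983) and -2.04 without the 2 libraries (adjusted p = 0.0676). For Csn1s2a K8iΔRank 787 stood apart, at 789 beside 12.3, 6.13 and 75.5 in the other 3 K8iΔRank libraries and inside the range of 388 to 1226 in libraries 532, 534 and 558. The log2 fold change of Csn1s2a was -3.31 with all 9 libraries and -3.82 without the 2, and it was negative in every alternative setting. That of Csn2, for β-casein, was -3.93 and -4.62, also negative in every alternative setting, and K8iΔRank 787 again stood apart as high, at 694. κ-casein (Csn3) differed less, at 1004 to 1996 against 1702 to 1898. Lalba and Ltf, for α-lactalbumin and lactoferrin, had positive values of 1.76 and 0.64 with adjusted p of 0.195 and 0.234, and without the 2 libraries the values were 0.77 and 0.74. Of the 19 tested milk proteins 11 were negative (10 without the 2), with a median of -0.04 (-0.13).

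Factors of alveolar cells split in direction. Cited4 read 66.6, 70.2, 63.5 and 72.5 in K8iΔRank libraries and 125, 111 and 169 in libraries 532, 534 and 558, with 134 and 332 in 494 and 557, which did not overlap, and its log2 fold change was -1.22 (SE 0.29, adjusted p = 0.101) and -0.95 without the 2 (adjusted p = 0.0522). Elf5, the ETS factor of alveolar progenitors, read 110.4 to 199 against 225 to 345, but libraries 494 and 557 were at 148 and 159.8. Muc15, a mucin of milk fat globules, read 68.3, 64.1 and 83.9 in K8iΔRank 794, 798 and 830 and 207 in 787, against 266 to 452. Aldh1a3, a retinaldehyde dehydrogenase of luminal progenitors, had the opposite sign, at 419 to 714 against 229 to 324 with 296 and 352 in libraries 494 and 557, and a log2 fold change of 0.88 (SE 0.21, adjusted p = 0.102) and 1.00 without the 2. None of the 26 alveolar and progenitor factors was called with all 9 libraries, and Irx1 was the 1 called without the 2.

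Genes of hormone-sensing luminal cells mostly had positive values, with 17 of 20 above 0 and a median of 0.66, or 1.52 without libraries 494 and 557. None was called, and the list moved with single control libraries. Its mean level was 6.96 to 7.48 in K8iΔRank libraries and 4.88 to 7.03 in libraries 532, 534 and 558, with 534 the lowest, while libraries 494 and 557 were at 7.72 and 7.12. The prolactin receptor gene Prlr read 1678, 4761, 4144 and 2093 in K8iΔRank libraries, 835, 464 and 2331 in libraries 532, 534 and 558, and 4067 and 2384 in 494 and 557. Esr1 and Pgr, the oestrogen and progesterone receptors, likewise overlapped between genotypes, at 69.5 to 131 against 26.0 to 77.0 for Esr1 and 90.6 to 575 against 25.6 to 231 for Pgr.

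Areg, the ErbB ligand that hormone-sensing cells release, read 639, 818, 505 and 630.2 in K8iΔRank libraries and 437, 71.5 and 383 in libraries 532, 534 and 558, with 223 and 425 in 494 and 557. Every K8iΔRank value was above every K8imTmG value, and the log2 fold change was 1.30 (SE 0.48, adjusted p = 0.178) and 1.47 without libraries 494 and 557. In a bulk library of sorted cells, fewer cells of a type and less RNA per cell cannot be told apart, which holds for the alveolar and the hormone-sensing lists alike.

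**Figure D4:**
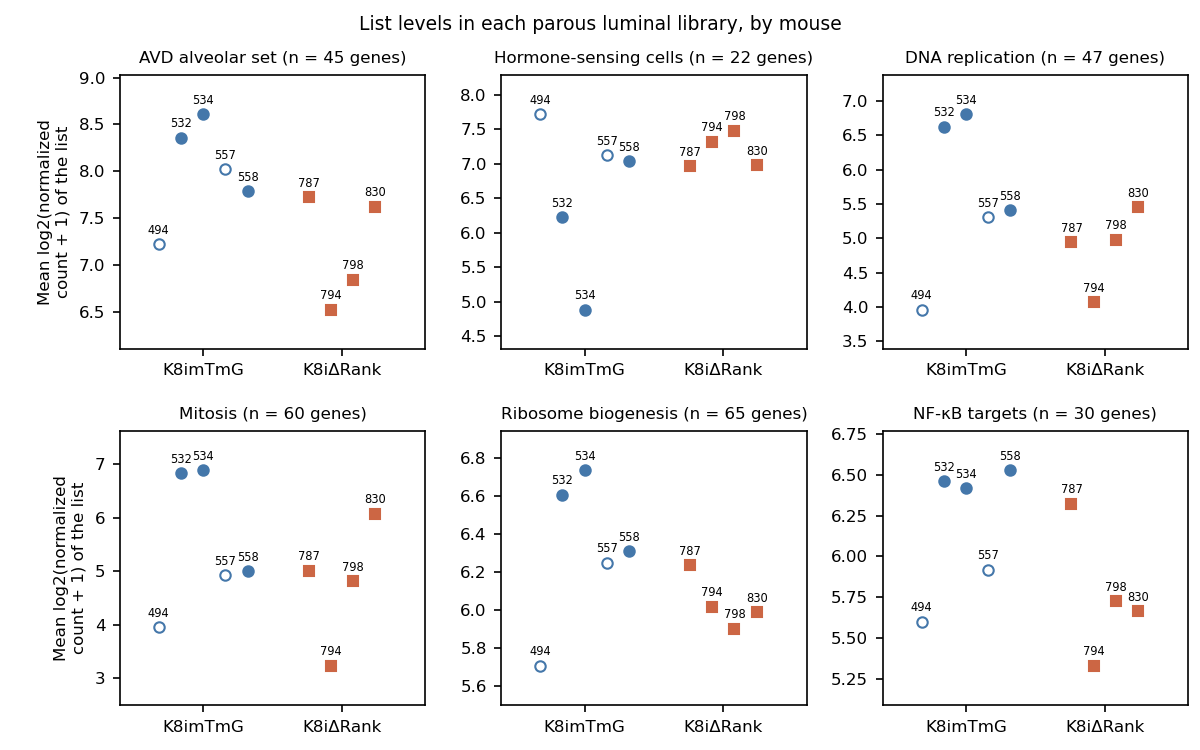
Mean log2(normalized count + 1) over the genes of 6 lists in each parous luminal library, with the mouse number beside each point. Circles are K8imTmG (open: 494 and 557) and squares are K8iΔRank. In the ribosome biogenesis panel all 4 K8iΔRank points (5.90 to 6.24) lie below K8imTmG 532, 534 and 558 (6.31 to 6.73). There K8imTmG 494 is at 5.71, below every K8iΔRank point, and 557 is at 6.25. In the hormone-sensing panel the K8iΔRank points (6.96 to 7.48) overlap with K8imTmG 532, 534 and 558 (4.88 to 7.03).

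Genes of DNA replication and of mitosis mostly read lower in K8iΔRank luminal cells, and the span within each genotype was wide. Of 47 replication genes tested 45 had a negative value (all 47 without libraries 494 and 557), with a median of -0.70 (-1.40). Of 60 mitotic genes 52 had a negative value (59 without), with a median of -0.77 (-1.61). Only Cdca7 was called among them, without libraries 494 and 557. The mean level of the mitotic list was 3.23 to 6.07 in K8iΔRank libraries and 4.997 to 6.88 in libraries 532, 534 and 558, with 3.95 and 4.93 in 494 and 557, so that libraries overlapped.

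Mcm4, a subunit of the replicative helicase, read 33.9, 6.88, 36.2 and 15.4 in K8iΔRank libraries and 120.0, 122 and 68.8 in libraries 532, 534 and 558, with 43.7 and 67.1 in 494 and 557. The groups did not overlap, and the log2 fold change was -1.97 (SE 0.47, adjusted p = 0.102) and -2.32 without them (adjusted p = 0.061). Tmpo, a nuclear lamina protein, read 80.6 to 147 against 234 to 348 with 163 and 256 in libraries 494 and 557, and Slbp, which binds histone mRNA, read 43.7 to 82.5 against 105 to 154 with 232 and 239.7. The proliferation marker Mki67 did not follow genotype in this way, at 51.0, 4.42, 45.1 and 264 in K8iΔRank libraries, 433, 407 and 43.3 in libraries 532, 534 and 558, and 8.4002 and 9.59 in 494 and 557. Ccnd1, which encodes cyclin D1 and is a known target of Rank signalling, read 957 to 1613 against 2259 to 2565, with 1239.9 and 2662 in libraries 494 and 557, and its log2 fold change was -0.77 (SE 0.28, adjusted p = 0.174) and -0.93 without the 2 (SE 0.20, adjusted p = 0.0615).

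Genes of ribosome biogenesis, which process and assemble ribosomal RNA and proteins in the nucleolus, had small negative values in most members. Of 65 tested, 50 were negative with all 9 libraries and 62 without libraries 494 and 557, with medians of -0.23 and -0.45, and none was called. K8iΔRank libraries lay below every K8imTmG library in 11 of them, where the share over all genes was 4.24%. Without the 2 libraries they did in 28, where the share over all genes was 10.3%. The mean level of the list was 5.90 to 6.24 in K8iΔRank libraries and 6.31 to 6.73 in libraries 532, 534 and 558. Library 494 was below every K8iΔRank library, at 5.71, and 557 was at 6.25. Rrs1, a 60S assembly factor, read 128, 79.1, 97.5 and 103 in K8iΔRank libraries and 199, 176 and 179 in libraries 532, 534 and 558, with 149.5 and 205 in 494 and 557. Its log2 fold change was -0.84 (SE 0.17, adjusted p = 0.0922) and -0.87 without them. Gar1, of the H/ACA snoRNPs, read 22.8, 4.42, 15.6 and 4.97 against 47.6, 33.1 and 35.0, with 33.6 and 47.9 in libraries 494 and 557, again without overlap.

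The 84 genes of cytosolic ribosomal proteins themselves gave a different picture in the 2 comparisons. Their median was -0.60 with all 9 libraries, with 82 members negative, and -0.07 with 56 negative once libraries 494 and 557 were left out. These are the libraries in which ribosomal protein genes took 19.1% and 25.2% of the normalized counts. Eef1a1, the most used elongation factor, read 1919 to 2867 in K8iΔRank libraries and 2976 to 3905 in libraries 532, 534 and 558, but 14082 and 16489 in 494 and 557. The 58 translation factors had a median of -0.04, and of -0.20 without the 2 libraries, and none was called.

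Targets of NF-κB, the pathway downstream of Rank, were mostly negative, with 20 of 29 tested below 0 (23 without libraries 494 and 557) and medians of -0.49 and -0.65, and none was called. The mean level of the list was 5.33 to 6.32 in K8iΔRank libraries and 6.42 to 6.53 in libraries 532, 534 and 558. Libraries 494 and 557, at 5.60 and 5.92, lay inside the K8iΔRank range. Nfkbia, the inhibitor that NF-κB itself induces, read 2872, 1765, 2376 and 1626 in K8iΔRank libraries and 3715, 3974 and 4786 in libraries 532, 534 and 558, with 4694 and 6976 in 494 and 557. The groups did not overlap, and its log2 fold change was -1.16 (SE 0.27, adjusted p = 0.0949) and -0.97 without those libraries (adjusted p = 0.0596). Relb, a subunit of the noncanonical pathway, read 28.0 to 47.9 against 52.8 to 70.2 with 50.4 and 89.5 in libraries 494 and 557. Map3k14, the NF-κB-inducing kinase, had the opposite sign, at 20.1 to 28.8 against 11.7 to 16.3 with 13.4 and 12.8.

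Tnf and Vcam1 separated the genotypes only without libraries 494 and 557. Tnf read 79.1, 22.1, 17.8 and 38.7 in K8iΔRank libraries, 126, 129 and 132 in libraries 532, 534 and 558, and 25.2 and 41.5 in 494 and 557. The 23 tested genes of Rank signalling had a median of -0.01 with all 9 libraries and -0.32 without the 2, and none was called. Rspo1, an R-spondin that enhances Wnt signalling and is made by luminal cells, read 89.04, 3.44, 8.36 and 16.4 in K8iΔRank libraries and 244, 352 and 173 in libraries 532, 534 and 558, but 10.1 and 144 in 494 and 557, where the first falls among the K8iΔRank values. Its adjusted p was 0.176, and 0.0575 without those libraries.

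Immediate early genes, which respond within minutes to growth factors and also to tissue dissociation, were negative in 22 of 34, with a median of -0.37 (-0.49 without libraries 494 and 557). Ier2 read 158, 167, 213 and 99.3 in K8iΔRank libraries and 330.3, 351 and 571 in libraries 532, 534 and 558, with 428 and 313 in 494 and 557. The log2 fold change of Ier2 was -1.33 (SE 0.25, adjusted p = 0.0735) and -1.39 without them, and the groups did not overlap. Ccn1 and Jun did not overlap either, Jun at 1086 to 2269 against 2407 to 3275 with 5015 and 4179.7 in libraries 494 and 557. Fos did, since library 557 was at 1946 beside 926 to 2243 in K8iΔRank libraries. The time from tissue to lysis is not given in the sources used here, and its part in these values was not tested.

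**Figure D5:**
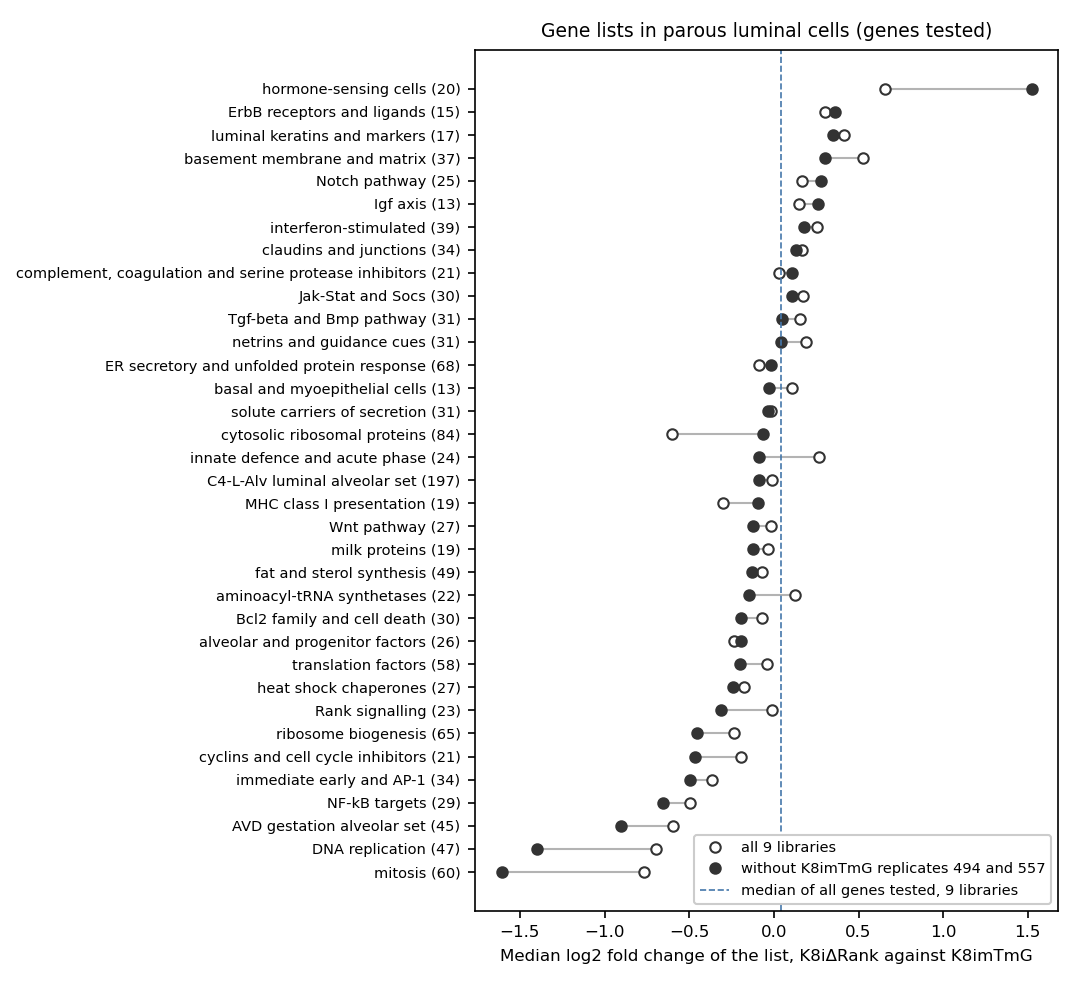
Median log2 fold change (K8iΔRank against K8imTmG) of each gene list with at least 10 members tested, with all 9 parous luminal libraries (open) and without K8imTmG replicates 494 and 557 (filled), and the number of genes tested in brackets. Mitosis (-0.77 and -1.61) and DNA replication (-0.70 and -1.40) have the lowest medians without the 2 libraries and hormone-sensing cells (0.66 and 1.52) the highest.

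Genes of the basement membrane and matrix had positive values in 28 of 36 tested, with a median of 0.53, or 0.30 without libraries 494 and 557, and Snorc was the called member. Sparc, a matrix glycoprotein, read 66.2, 102, 89.7 and 164 in K8iΔRank libraries and 41.2, 25.6 and 39.8 in libraries 532, 534 and 558, but 20.2 and 76.7 in 494 and 557. Tenascin C (Tnc) had the opposite sign, at 30.4, 5.40, 6.13 and 7.95 against 55.2, 43.2 and 37.6, with 8.4002 and 54.3 in libraries 494 and 557.

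Keratins of luminal cells read slightly higher in K8iΔRank libraries without any call. Krt18 read 1535 to 2098 against 857 to 1369 in libraries 532, 534 and 558, with 1877 and 1202 in 494 and 557, and its log2 fold change was 0.62 (SE 0.24, adjusted p = 0.202) and 0.83 without them (adjusted p = 0.0634). The median of 17 luminal keratins and markers was 0.42 (0.35 without the 2 libraries). Nectin2, an adhesion molecule of adherens junctions, read 153, 157, 156 and 186 against 78.4, 91.8 and 107 with 94.1 and 70.3, with a log2 fold change of 0.89 (SE 0.16, adjusted p = 0.0716), or 0.82 without the 2 libraries, and no overlap. In the list of 33 claudins and junction genes tested with all 9 libraries none was called, and without the 2 Dsp was.

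Receptors and ligands of the ErbB family had a median of 0.30 in 15 tested genes (0.36 without libraries 494 and 557), and Areg was the member without overlap. Erbb2 read 73.4, 115, 101 and 113 in K8iΔRank libraries and 60.8, 52.9 and 67.1 in libraries 532, 534 and 558, with 77.3 and 47.9 in 494 and 557. Among 27 genes of the Wnt pathway, with a median of -0.02, the receptor gene Fzd7 read 7.45 to 23.2 against 27.4 to 35.2 with 26.9 and 47.9, and the ligand gene Wnt7b read 121 to 168 against 37.5 to 106 with 77.3 and 54.3. The groups did not overlap for either gene, and neither was called. Sostdc1, a secreted antagonist of Wnt and Bmp signals, was called higher without the 2 libraries and read 63.2, 30.5, 29.5 and 26.3 against 11.2, 7.06 and 6.49, with 11.8 and 12.8 in libraries 494 and 557.

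Markers of other cell types were low, but those of endothelial cells were not level between genotypes. The summed level of 12 endothelial markers in the table was 76.5 to 188 in K8iΔRank libraries and 22.9 to 144 in K8imTmG libraries, with 494 and 557 the highest of the latter. Pecam1, a junction protein of endothelium, read 7.86 to 16.7 in K8iΔRank libraries and 1.5996 to 5.62 in K8imTmG libraries, Kdr 4.19 to 9.48 against 1.32 to 6.39, and Cdh5 at most 3.34 in any library. Aqp1, Cavin2, Egfl7 and Pgf are also transcribed in endothelium, and the part of endothelial RNA in their values was not tested. The sort excluded CD31+ cells, and CD31 is the product of Pecam1. Egfl7 read 10.7, 38.8, 22.3 and 22.3 against 6.80, 3.53 and 4.33, with 43.7 and 12.8 in libraries 494 and 557.

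The marker lists of basal cells, fibroblasts, adipocytes, immune cells and red blood cells overlapped between genotypes. The summed level of 27 basal markers was 769 to 925 in K8iΔRank libraries and 581 to 821 in K8imTmG libraries, that of 16 fibroblast markers 310.1 to 732 and 148 to 537, and that of 4 adipocyte markers 254 to 298 and 186 to 373. The 4 immune markers in the table summed to 21.7 to 30.7 and 12.8 to 32.0, and the 3 red blood cell markers to 13.8 to 105 and 3.20 to 75.6. MHC class II genes were low. Their summed level over 7 genes separated the genotypes, at 81.9 to 113 in K8iΔRank libraries and 44.1 to 77.3 in K8imTmG libraries. For none of the 5 tested genes did every K8iΔRank library lie above every K8imTmG library. H2-Aa, too low to be tested, did not overlap, at 4.46 to 5.90 in K8iΔRank libraries and 0 to 3.36 in K8imTmG libraries. H2-Ab1 was at 11.7 to 20.9 and 3.20 to 16.8, and Cd74 at 2.79 to 9.93 and 0 to 4.80, so that both overlapped. No MHC class II gene was called with all 9 libraries, and H2-DMb1 was the 1 called without libraries 494 and 557. CD45+ cells were excluded in the sort, and the part of remaining immune cells in these values was not tested.

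Several of these genes had another genotype difference in virgin than in parous luminal cells. They were chosen for their difference in parous libraries, which the test of the stages uses again, so that their passing it is no independent result. In a limma model over all 15 luminal libraries, 12.9% of 10262 genes were called for the difference between the genotype effects of the 2 stages (1326 genes, and 336 to 817 when parous K8iΔRank 794 or 830, virgin K8iΔRank 821 or virgin K8imTmG 533 or 538 was left out), and 7 of the 9 genes among the 10 that could be tested there were called. All 3 virgin K8iΔRank libraries had Clec2d at 65.6 to 146 and all 3 virgin K8imTmG libraries at 0.641 to 2.21, so that in virgin cells, and in the test of the stages, the Clec2d split and genotype cannot be told apart.

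Masp1 read 21.5 to 92.5 in virgin K8iΔRank and 22.02 to 47.8 in virgin K8imTmG luminal cells, with a log2 fold change of 0.47 (SE 0.49, adjusted p = 0.605), and the parous difference exceeded the virgin one by 3.92 on the log2 scale (adjusted p = 0.0108). For Snorc the virgin K8imTmG level of 120 to 186 was already in or near the range of parous K8iΔRank libraries, whereas parous K8imTmG libraries were at 15.9 to 60.5. Lpcat3 had the opposite sign in virgin cells, at 108 to 120 in K8iΔRank against 197 to 240 in K8imTmG libraries, and the stages differed by 2.03 (adjusted p = 0.00313). Irx1 likewise turned, from 1.14 in virgin cells to -1.29 in parous cells, a difference of -2.42 (adjusted p = 0.00765).

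Serpine2 and Rbm24 were the genes of the 10 whose stage difference did not pass the test. Rbm24 read 38.3 to 58.0 in virgin K8iΔRank and 4.72 to 10.9 in virgin K8imTmG luminal cells, where it was called with a log2 fold change of 2.33 (SE 0.40, adjusted p = 0.0349, in a comparison that called 0.984% of genes). Leaving out any 1 of K8iΔRank 821, 822 or 825 or K8imTmG 533 ended that call, with adjusted p of up to 0.158. Serpine2 read 72.7 to 331 against 14.7 to 63.4 in virgin cells, with a log2 fold change of 2.40 (SE 0.59, adjusted p = 0.0692). The difference between stages was 0.71 for Rbm24 (adjusted p = 0.47) and 1.604 for Serpine2 (adjusted p = 0.23). Col23a1 was at 0 to 5.28 in virgin K8iΔRank and 0 to 1.92 in virgin K8imTmG luminal cells and was not tested there.

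In basal cells of parous glands, which the Krt8 promoter does not target, 0.906% of genes were called between genotypes, and Cdca7 was called lower there as well. It read 21.1 to 74.9 in K8iΔRank and 105 to 294 in K8imTmG basal libraries, with a log2 fold change of -2.01 (SE 0.40, adjusted p = 0.0436). The call was lost when any 1 of 6 of the 8 basal libraries was left out (K8iΔRank 787, 798 or 830, or K8imTmG 532, 534 or 557), with adjusted p of up to 0.139 and log2 fold changes of -2.29 to -1.70. None of the 10 genes called in luminal cells was called in basal cells. Ntn4 came nearest, at 42.9 to 226 against 23.02 to 42.1, with a log2 fold change of 1.51 (SE 0.41, adjusted p = 0.0772), and Masp1 read 13.4 to 57.9 against 12.6 to 51.8. The basal libraries are split by Clec2d too, which was at 72.8 to 199 in all 4 K8imTmG libraries and at 78.9 and 68.3 in 2 of the 4 K8iΔRank libraries, with 4.29 and 4.84 in the other two, and its part in the basal values was not tested.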

How the data were processed

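The libraries were made with the QuantSeq 3′ mRNA kit with unique molecular identifiers from RNA with a mean RIN of 6.9 over the series (range 2.5 to 8.6). The authors trimmed reads, collapsed molecular identifiers with UMI-tools, aligned with Bowtie2 to GRCm39 and deposited a signal in the unit of DESeq2 normalized counts, that is read counts per gene divided by a size factor of each library, for 11137 genes. Every value was a whole multiple of the value of 1 read (100% within 0.01 reads), and the reads were recovered from these steps. Each library is 1 mouse, and libraries of one group differed by more than counting error (lowest chi-square per degree of freedom 4.82 over 16 pairs).

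A gene entered the test when more than 10 normalized counts were reached in 25% or more of the compared libraries. The test was limma 3.58.1 (R 4.3.3) on log2(normalized count + 1) with a trended prior, and p-values were adjusted by Benjamini-Hochberg, with 0.05 as the threshold. Alternatives were count models on recovered reads (DESeq2 1.42.0, edgeR 4.0.16), a pseudocount of 0.5 or of 4, testing of all genes or only of those with a mean from 50 upwards, array quality weights, quantile normalization, one model over the whole set of luminal libraries, and the omission of each library in turn. Positions are from GENCODE on GRCm39. The 44 gene lists (1586 symbols, 1304 in the table) and the members were chosen with earlier results of these data known, and no test was made on a list. Genes named are those with the lowest p-values and no overlap between genotypes, called members of lists and key members of lists. Aqp1, Tac1, Pgf, Fgf2, Kcne3, Apod, Smim3, S100g, Dst, Etv1, Trp53inp1, Atic, Lbh, Sostdc1 and members of lists that are named for having no overlap were chosen after their values were seen. A set of 100 genes picked by these rules was checked under the alternatives, and 98 of them were tested with 9 libraries. It holds some genes not named here and leaves out some named ones, such as Clec2d, Epcam, Krt5, Pecam1 and Cd74. The steps were tested on simulated data. Some results are not reported here. The deposited data hold no columns of comparisons, and 0 columns were left out.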

Additional observations from a re-analysis of the deposited data

Results flagged for a closer look

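In each gene of the set of 100 described above, the highest and the lowest library of each genotype were checked for standing far from the others. The measure was the gap to the nearest library as a share of the range of the group. Over 200 groups of 4 or 5 libraries, 20 held such a library. The rule would give about 1 in 20 groups for independent and normally distributed values. Normalized counts need not be so distributed, and the groups share the same libraries, so that the number was not compared with chance. K8imTmG 494 was the high one for Apod (128), Cited1 (1583), Egfl7 (43.7), H2-DMb1 (38.6), Kcne3 (42.001) and Smim3 (647), and the low one for Ccnd1 (1239.9). K8imTmG 557 was high for Cited4 (332) and for Kif1a (3.20, the value of 1 read there), and K8imTmG 532 held the only control read of Col23a1 (0.400).

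K8iΔRank 787 was the high one for the milk genes Csn2 (694), Csn1s2a (789) and Muc15 (207), for Rspo1 (89.04), Sostdc1 (63.2), Tnc (30.4) and Plscr2 (68.9), and the low one for Ntn4 (54.8), where it was still above every control. K8iΔRank 830 was high for Nectin2 (186) and K8iΔRank 798 low for H2-Ab1 (11.7).

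The genotype difference was also tested between parous and virgin luminal cells, where 12.9% of all genes passed. The genes below were chosen for their difference in the parous libraries that this test uses again, so that their number says nothing about the stages. The parous minus virgin difference, on the log2 scale, was 3.92 for Masp1, 2.67 for Snorc, 3.45 for Ntn4, 1.34 for Cavin2, 2.03 for Lpcat3, 1.51 for Sfn and 1.42 for Sgms1 among the genes called with 9 libraries. It was 2.24 for Epb41l3, 2.68 for Trp53inp1, 1.98 for Etv1 and 2.10 for Dsp, and negative for Sf3b5 (-1.34), Cdca7 (-3.61), Irx1 (-2.42), G0s2 (-4.48) and Hspa14 (-2.10). Limma adjusted p ranged between 0.00313 for Lpcat3 and 0.0434 for Sfn and Sf3b5. Without K8imTmG 494 and 557 those of Sfn and Sf3b5 were 0.0765 and 0.053. The 3 virgin K8iΔRank libraries share the high Clec2d of libraries 494 and 557 and the virgin K8imTmG libraries do not, so that in virgin cells the 2 cannot be told apart.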

How the results depend on the processing

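With all 9 libraries limma called 10 genes, and these counts moved by over 1.5 times in DESeq2 (611), edgeR (20), array quality weights (1147) and one model over all luminal libraries (42). Of those calls 341, 2, 500 and 4, in the same order, were lower in K8iΔRank cells. Without K8imTmG 494 and 557 it called 42, against 939 in DESeq2, 2609 with weights, 109 in one model, 19 and 132 with pseudocounts of 0.5 and 4, 67 without a filter, 4 with a mean of at least 50, and 144 after quantile normalization. Members of lists that were called numbered 4 with all 9 libraries, against 118 in DESeq2, 192 with weights and 10 in one model, and 10 without the 2 libraries, against 190, 420 and 26, and 3 with a mean of at least 50, 31 with a pseudocount of 4 and 35 after quantile normalization. DESeq2 called 648 genes in virgin luminal and 645 in parous basal cells, against 99 and 96 in limma.

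Leaving out 1 library gave 0 to 21 calls with all 9 libraries, 1 to 909 without 494 and 557, 336 to 1533 for the difference between stages (1326 with all), 0 to 247 in virgin luminal cells, 0 to 1050 in parous basal cells, and 0 to 7 and 1 to 184 called members of lists. Where no gene was called with all 9 libraries, a K8iΔRank library had been left out, and 1270 to 1944 genes had an unadjusted p under 0.05.

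In the set of 100 checked genes, 94 of the 98 tested with 9 libraries kept their sign there under each of the 16 to 18 alternatives in which they were tested. All 100 did without 494 and 557 under each of 12 to 16. Many of these genes were chosen in the same libraries for a low p or for no overlap. Where the groups do not overlap, leaving out 1 library cannot turn the sign in limma, so that these counts are no independent support. Leaving out 1 library, the log2 fold change of Tnfrsf11a ranged between -0.34 and 0.22, that of Esr1 between -0.054 and 0.62 and that of Mki67 between -1.35 and 0.52, and that of Cited1 was -0.28 in DESeq2 and -0.27 in edgeR against 0.57 in limma. The cause of these changes was not tested. List medians kept their sign under every alternative in 29 of 44 lists, and in 30 without the 2 libraries. No paired analysis was possible because the 2 genotypes share no mouse numbers. At 534445 reads, 3 reads in library 557 are worth 9.59 normalized counts, so that differences in genes near or under that level were not detectable there.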
